A study of Drosophila melanogaster with 2 samples.

Results

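The Polycomb group genes described here are Pc, ph-p, ph-d, Psc, Su(z)2, E(z), esc, pho, phol and Scm, 10 of the 13945 protein-coding genes on the 6 main chromosome arms of Drosophila melanogaster. They were chosen by name with peak results of these same data known, so the peaks that lie at them are a description and carry no test. The data are lists of chromatin peaks of Hand, a basic helix-loop-helix transcription factor of the embryonic heart, pericardial cells, lymph gland and visceral muscle. Chromatin came from whole embryos of both sexes, 6 to 24 h old, of a line that stably expresses Hand with a C-terminal GFP tag. It was sonicated to 200 to 800 bp and precipitated with an antibody against GFP. There was 1 group, Hand-GFP, with 2 biological replicates, labelled 2 and 3, and no control library was analysed here, so no groups could be compared.

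Polycomb group proteins keep developmental genes silent in cells where those genes should be off. Polycomb repressive complex 2 (PRC2) methylates a lysine in the tail of histone H3, Polycomb repressive complex 1 (PRC1) binds this mark and compacts chromatin, and DNA-binding proteins of the Pho family bring the complexes to Polycomb response elements. In flies, the ph locus and the Psc and Su(z)2 locus are themselves known as Polycomb targets. Peaks in whole embryos mix all cell types, and which cells gave the signal at these genes cannot be told from the lists.

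The authors' reproducibility threshold kept 3310 peaks, which are the strongest of the 30000 entries of the list pooled over both replicates. By its label the pooled list holds peaks and background. Its entries below the threshold are called peaks here, but may be background. Each replicate also has its own list of 30000 peaks. The deposited signal of a peak comes from the authors' peak calling and has no common scale between lists, so the rank by signal within each list stands beside it. The pooled value has no error, and the read depth is unknown. The replicates stood apart at the tagged gene: the 90 kb around Hand held 36 peaks of replicate 3, 4 of replicate 2, 16 of the pooled list and 3 of the thresholded list. The labels give both libraries the same line, and why they differ at the tagged gene was not tested. Values of both replicates are therefore given for each thresholded summit of the 10 genes, wherever the replicate listed it.

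The sequence at a summit, the point of highest signal in a peak, is printed here for some of these peaks. Windows that overlap a UTR were left out, among them those of the strongest ph-p summit and of E(z). The weaker intronic ph-p windows were also left out. The printed windows hold the only E-box and GAGAG of all windows read at these genes, so they are not typical of the set. In the 5 windows below, each 101 bp centred on a thresholded summit, capitals mark 4 words on either strand: the E-box (CANNTG), the Pho core (GCCAT), the GAGA word (GAGAG) and the Dsp1 word (GAAAA). All are plus-strand sequence, 5′ to 3′, from the RefSeq release 6 assembly, which is the dm6 build. The ph-p window is from the gene's second strongest summit. The window between ph-p and ph-d is from the stronger of the summits that both genes share, and the phol and Pc windows are from summits upstream of those genes.
ph-p intron, chrX:2137241-2137341: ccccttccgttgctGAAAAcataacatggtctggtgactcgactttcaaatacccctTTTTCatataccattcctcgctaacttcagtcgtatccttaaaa
between ph-p and ph-d, chrX:2124133-2124233: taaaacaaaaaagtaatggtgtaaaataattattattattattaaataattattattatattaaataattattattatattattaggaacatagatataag
phol upstream, near, chr3L:9457743-9457843: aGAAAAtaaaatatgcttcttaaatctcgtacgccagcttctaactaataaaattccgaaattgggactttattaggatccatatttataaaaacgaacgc
phol upstream, far, chr3L:9460832-9460932: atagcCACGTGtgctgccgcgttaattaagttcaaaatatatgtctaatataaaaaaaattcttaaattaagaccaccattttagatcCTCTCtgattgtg
Pc upstream, chr3L:21322007-21322107: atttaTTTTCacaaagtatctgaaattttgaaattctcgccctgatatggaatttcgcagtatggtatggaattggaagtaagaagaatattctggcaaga

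At 50 bp on each side of the summit, each of the 6 words sought had a lower share at Polycomb group genes than in all windows. At 100 bp this did not hold for the E-box, GAGAG and CATCTG. Of 17 summits assigned to these genes, 13 had a window that was read, and the windows of the 4 at Psc and Su(z)2 were not analysed here. The Pho core GCCAT, bound by Pho and Phol, was in 0 of 13 windows, against 13.5% of all 2693 thresholded windows of the same length. The E-box CANNTG, the kind of word that basic helix-loop-helix factors bind, was in 1 of 13 windows, against 34.9% of all windows. That window is the far one upstream of phol, where the word reads CACGTG. The same window held the set's only GAGAG, the word of the GAGA factor, found in 13.6% of all windows. CATCTG, an E-box bound by Hand with its partner Daughterless, and TATCGATA, the word of the factor DREF, were each in 0 of 13 windows, against 2.56% and 0.928% of all windows. For words this rare, 0 of 13 is an ordinary count, and nothing is read from it. GAAAA, a word of the HMG-box protein Dsp1, was in 4 of 13 windows, at ph-p, phol and Pc, against 48% of all windows. Words were sought on both strands, and each CATCTG is also counted as an E-box. These counts depend on the window. Within 100 bp on each side, the E-box was in 8 of 13 windows (61.5%), against 59.8% of all windows, and GAGAG in 5 of 13 (38.5%), against 29.2%. CATCTG was in 1 of 13 (7.69%), against 5.68%, and TATCGATA in 0 of 13, against 1.93%. GCCAT was in 2 of 13, against 24.9%, and GAAAA in 9 of 13, against 73.8%.

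The base composition of the windows ranged widely. The median share of A and T was 67.3% in the 13 windows, against 66.3% in all windows, whose quartiles were 57.4% and 73.3%. The summit between ph-p and ph-d was the extreme: its window was 90.1% A or T, and 99.9% of all windows were lower. The summit 40 bp upstream of the nearest ph-d start site was at the other end, with 47.5%. The highest-signal ph-p window had 70.3%, and the window near CG11309, beyond the 3′ end of Pc, had 76.2%.

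A gene was given a summit that lay in its body or within 5 kb of it. By this rule 7 of the 10 genes had a thresholded summit, namely Pc, ph-p, ph-d, Psc, Su(z)2, E(z) and phol, against 37.3% of all protein-coding genes. The same share was 41.7% among the genes whose length falls in the range of the 10. Because the genes were chosen with these peaks known, nothing is read from the difference. The genes esc, pho and Scm had no thresholded summit. The 7 genes shared 17 distinct summits, 2 of which counted for both ph-p and ph-d.

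Several of the summits ranked high. A summit among the 100 strongest lay at 4 of the 10 genes, Pc, ph-p, ph-d and Psc, against 2.09% of all genes. Their 5 summits had ranks 15, 18, 24, 25 and 93 of 3310. The 17 summits had a median signal of 245.3, from 95.68 to 995.4, and a median rank of 575. All thresholded peaks had a median signal of 135.8 and a median rank of 1655.5. Among the stronger 1655 peaks, the same 7 genes had a summit, against 23.5% of all genes. The threshold itself falls between a signal of 92.55 at rank 3310 and 92.49 at rank 3311 of the pooled list. The members' values nearest to it were 95.68 at phol, just inside, and 89.11 upstream of ph-p, just outside at rank 3540.

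The count of genes depends on how far from a gene a summit may lie. With a 2-kb limit, 6 of the 10 genes had a summit, against 25.7% of all genes, and Psc was the gene that dropped out. In the gene body alone, 3 genes had a summit, ph-p, E(z) and phol, against 10.2% of all genes. When each summit was given to the gene with the nearest transcription start site (TSS), 6 genes had one, against 16% of all genes, and Pc was lost because both its summits lie nearer to other genes. By the 3310 strongest peaks of replicate 3 the same 7 genes had a summit, against 37.8% of all genes. By those of replicate 2 there were 8, against 35.3%, and the added gene was Scm.

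**Figure D1:**
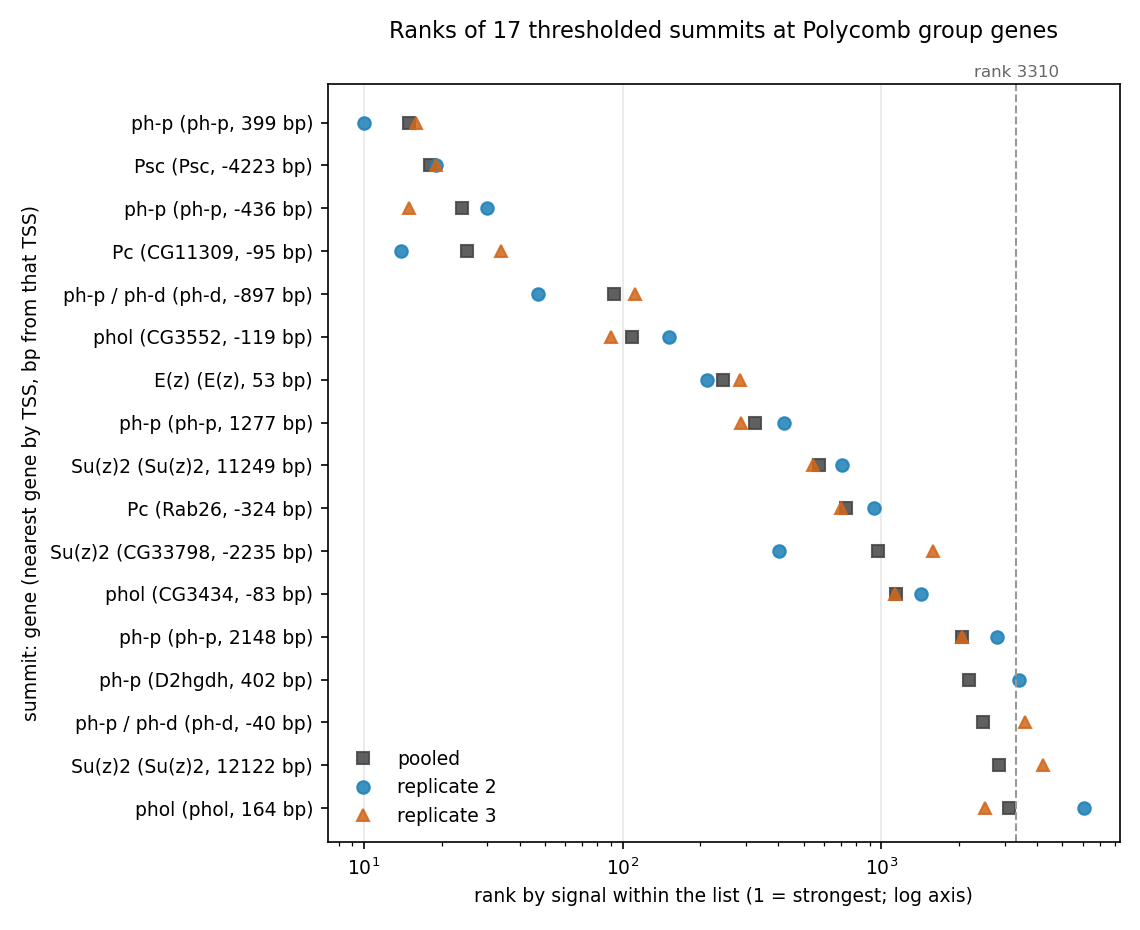
Ranks by signal of the 17 thresholded summits at the Polycomb group genes in the pooled list (squares), replicate 2 (circles) and replicate 3 (triangles), on a log axis, with the nearest gene by TSS and the distance from it in brackets (negative is upstream). The 4 strongest summits ranked between 10 and 34 in every list, and a missing symbol means that the replicate had no summit within 100 bp.

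PRC1 has 5 genes in the set, and the ph pair held the most thresholded summits. The genes ph-p and ph-d, for polyhomeotic proximal and distal, are neighbouring copies that code for SAM-domain subunits of PRC1. The ph-p gene (FBgn0004861) spans chrX:2126210-2138371 and ph-d (FBgn0004860) chrX:2115727-2123286, both on the minus strand and 2923 bp apart. The ph-p gene had 7 summits, of which 4 were in its body, and ph-d had 2, of which 0 were in its body. Both ph-d summits lie in the stretch between the genes, upstream of ph-d, and count for ph-p as well.

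The strongest peak of the set was in the 5′ UTR of ph-p, at chrX:2137686-2138120, with its summit 399 bp downstream of a TSS. Its signal was 384.3 (rank 10) in replicate 2, 650.8 (rank 16) in replicate 3 and 995.4 (rank 15) pooled. A separate peak followed 681 bp away, at chrX:2137176-2137552, in an intron and 436 bp upstream of the nearest of the gene's 3 start sites. Its signal was 280.9 (rank 30) in replicate 2, 665.1 (rank 15) in replicate 3 and 883.4 (rank 24) pooled. The order of the 2 peaks differed between replicates, since the 5′ UTR peak was the higher in replicate 2 and the intronic peak the higher in replicate 3.

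Lower peaks lay further along the first part of ph-p. The intronic peak at chrX:2135237-2135454, 1277 bp downstream of a TSS, had a signal of 102.5 (rank 422) in replicate 2, 224.7 (rank 287) in replicate 3 and 324.7 (rank 325) pooled. A weaker intronic peak at chrX:2134256-2134691 had 40.54, 79.07 and 121.3 in the same lists. Upstream, a peak at chrX:2141673-2142108 counted for ph-p but lay in an intron of D2hgdh, a D-2-hydroxyglutarate dehydrogenase gene, 402 bp from its TSS. Its signal was 36.62 in replicate 2 and 117.1 pooled. Replicate 3 had no summit within 100 bp of it, and its nearest was 140 bp away with 93.66. Among the 4 summits in the gene body, the pooled signal was highest in the 5′ UTR and lower at each summit further along, while replicate 3 had its highest value at the intronic summit of 665.1.

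Between the genes, the stronger peak was at chrX:2124070-2124382, 897 bp upstream of ph-d. Its signal was 251.6 (rank 47) in replicate 2, 358.6 (rank 112) in replicate 3 and 590.5 (rank 93) pooled. Replicate 3 listed a further peak beside it, so that it had 3 peaks in the stretch between the genes and replicate 2 had 2. The other shared peak, chrX:2123108-2123543, had its summit 40 bp upstream of ph-d, with a signal of 57.71 (rank 3577) in replicate 3 and 109 (rank 2475) pooled. Replicate 2 had no summit within 100 bp of it, but it listed summits on both sides, one 103 bp away with 24.81 (rank 7669) and one in the ph-d 5′ UTR with 41.16 (rank 2703). In the body of ph-d the strongest pooled peak was below the threshold, with a signal of 87.04 at rank 3699. Near it replicate 2 listed 28.49 and replicate 3 listed 47.41.

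**Figure D2:**
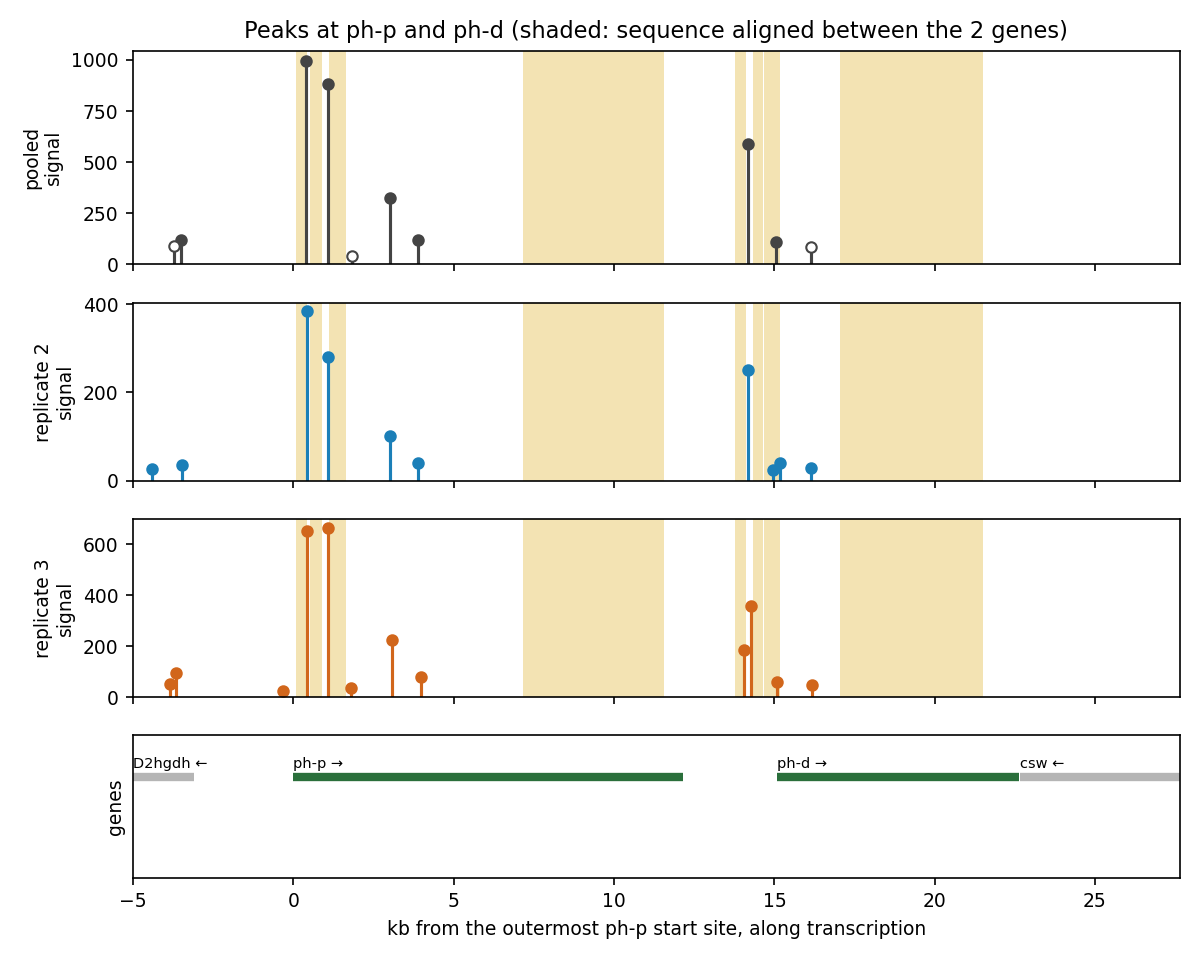
Signal of each peak against the position of its summit along the ph-p and ph-d locus, in kb from the outermost ph-p start site along transcription, for the pooled list (filled points are thresholded), replicate 2 and replicate 3, each on its own scale, with gene spans below. Shading marks sequence that aligns between ph-p and ph-d. In all 3 lists the highest points stand at the start of ph-p, and the next upstream of ph-d.

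The ph-p and ph-d genes arose by duplication, so their peaks were set against the sequence they share. A blastn comparison of the copies with flanks gave 4 aligned blocks. The longest was 4480 bp at 92% identity, in the bodies of the genes, and 0 of the thresholded peaks overlapped it. The others lay at the gene starts, with 529 bp at 90.7%, 387 bp at 70.5% and 358 bp at 81% identity. The summit in the 5′ UTR of ph-p lies in the 358-bp block, and the aligned position at ph-d is 94 bp from the shared summit with signal 590.5. The shared summit itself lies outside the blocks, in a 209-bp stretch of ph-d where ph-p has 98 bp, the AT-rich run printed above. The intronic ph-p summit printed above lies in a 208-bp stretch where ph-d has 15 bp. The 2 weaker intronic summits of ph-p lie in a 5519-bp stretch with no aligned sequence. Of the 3 strongest summits at the pair, 1 thus had an aligned position in the other copy and 2 had none.

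Reads from near-identical copies cannot be placed with certainty, and how the authors' alignment treated them is not given in the sources used here. Among the 13 peaks at genes other than Psc and Su(z)2, only the weak one at the ph-d start had another match of at least 100 bp at 90% identity or more, 370 bp at 91.1% in ph-p. The 5′ UTR peak of ph-p had a longest match of 161 bp at 82% identity, and the shared AT-rich peak had 1276 other matches, the longest 123 bp at 84.6%. The search left out arm 2R, the Y chromosome and unplaced sequence, so matches there were not seen. The part of multiply placed reads in these signals was not tested.

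Pc codes for the chromodomain subunit of PRC1 that binds the methylated histone. Pc (FBgn0003042, chr3L:21306138-21318020, minus strand) had 2 summits, both outside the gene and both nearer to another gene's start. The strong one, at chr3L:21304398-21304742, lies 1576 bp beyond the 3′ end of Pc and 95 bp from a TSS of CG11309. Its signal was 337.2 (rank 14) in replicate 2, 548.8 (rank 34) in replicate 3 and 882.5 (rank 25) pooled. The other, at chr3L:21321839-21322274, lies 4037 bp upstream of Pc and 324 bp from a TSS of Rab26, a small GTPase gene, in its intron. Its signal was 69.69 (rank 933) in replicate 2, 145.2 (rank 697) in replicate 3 and 216.6 (rank 727) pooled. At the start of Pc itself the pooled list held a weak peak 437 bp downstream of the TSS, with a signal of 56.61 at rank 7865. Replicate 3 listed it with 44.52 (rank 5628), and replicate 2 listed 0 peaks in the body of Pc. High signal near Pc was thus at the start of CG11309, while the start of Pc had a peak below the threshold in the pooled list. CG7632 starts close to CG11309 on the other strand, 13323 bp from the Pc start, where the strong summit is at 13458 bp.

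Psc and Su(z)2 code for related RING-finger proteins, alternative partners of the ubiquitin ligase subunit in PRC1, and lie head to head. Psc (FBgn0005624) spans chr2R:12965997-12980994 on the minus strand and Su(z)2 (FBgn0265623) spans chr2R:12996501-13007911 on the plus strand, 15506 bp apart. Between them lay 2 thresholded summits, and they shared none under the 5-kb rule. The Psc peak at chr2R:12985022-12985393, 4223 bp upstream of Psc, was the strongest at either gene and lay 150 bp from the noncoding gene lncRNA:CR44339. Its signal was 322.4 in replicate 2, 634.3 in replicate 3 and 953.1 (rank 18) pooled, and its rank was 19 in each replicate.

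Su(z)2 had 3 summits, none of them in its body. Beyond its 3′ end, 461 bp away, the peak at chr2R:13008154-13008589 had a signal of 79.27 (rank 707) in replicate 2, 166.7 (rank 546) in replicate 3 and 245.3 (rank 575) pooled. The peak at chr2R:12991444-12991879, 4839 bp upstream of Su(z)2 and 2235 bp from CG33798, had 105.9 (rank 403) in replicate 2, 90.97 (rank 1577) in replicate 3 and 184.6 (rank 973) pooled. Its rank was higher in replicate 2 than in replicate 3, whereas the peak beyond the 3′ end ranked higher in replicate 3. The third, 1334 bp beyond the 3′ end, had 52.69 in replicate 3 and 100.4 pooled, and the nearest summit of replicate 2 was 112 bp away with 31.11. A further thresholded peak nearest to a Su(z)2 start site, at chr2R:13015535-13015970, lay 7842 bp beyond the gene and is outside the 17. Its signal was 24.64 in replicate 2, 88.66 in replicate 3 and 112.4 pooled.

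The starts of both genes had weaker peaks. At Psc, a pooled peak 15 bp from a TSS had a signal of 88.48 at rank 3588, and at Su(z)2 a peak 68 bp downstream of a TSS had 88.56 at rank 3583. Both fall just under the threshold of 92.55. At the Psc start, replicate 2 listed 37.08 (rank 3309) and replicate 3 listed 53.76 (rank 4062). The replicates differed at the Su(z)2 start, where replicate 2 listed 12.69 at rank 29221, near the end of its list, and replicate 3 listed 59.88 at rank 3354. The body of Su(z)2 held 8 pooled peaks in all and that of Psc held 4, with pooled signals of at most 88.56.

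**Figure D3:**
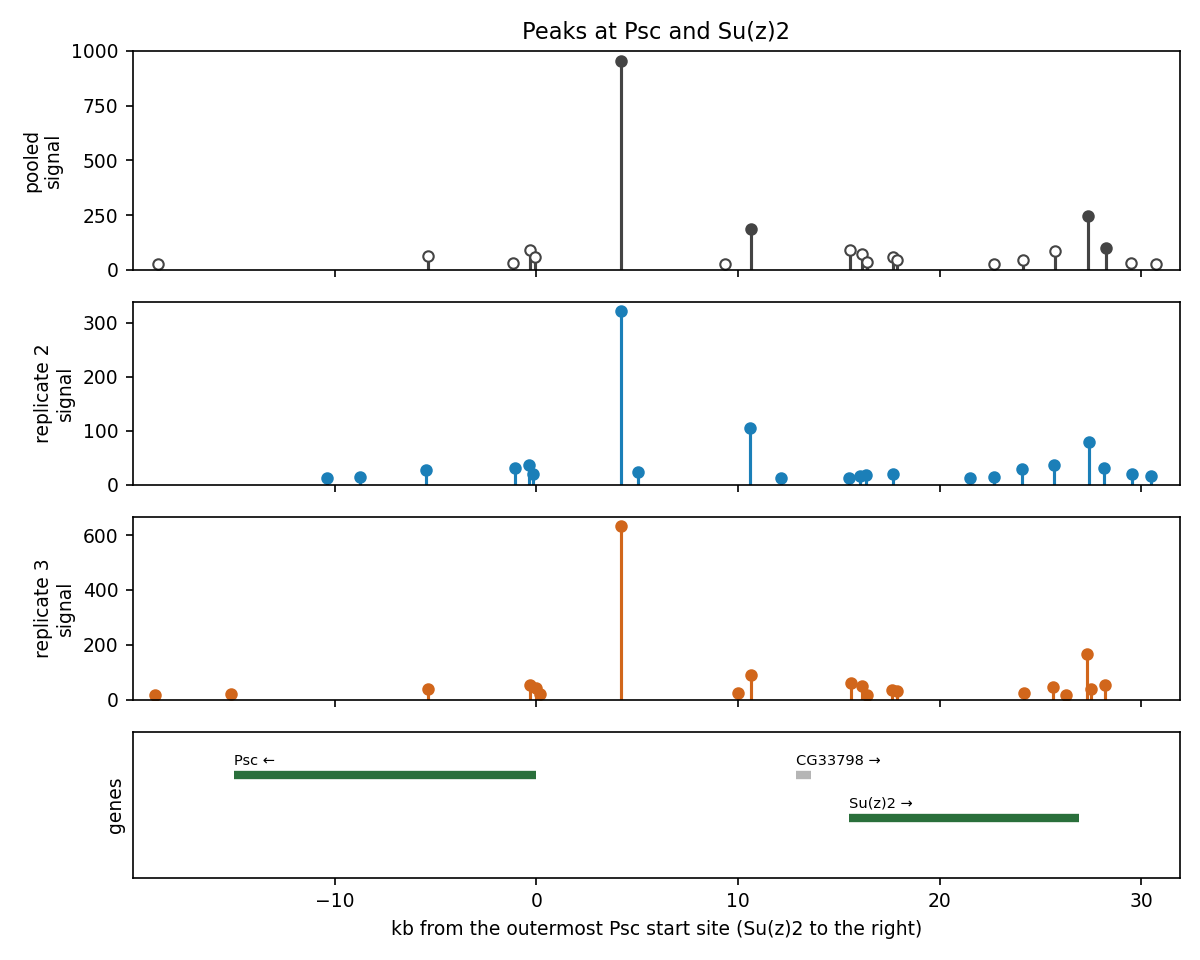
Signal of each peak against the position of its summit along the Psc and Su(z)2 locus, in kb from the outermost Psc start site, for the pooled list (filled points are thresholded), replicate 2 and replicate 3, each on its own scale, with gene spans below. A single peak, with a pooled signal of 953.1, stands far above the rest in all 3 lists, and the peaks in the gene bodies are low.

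PRC2 has 2 genes in the set. E(z) codes for the methyltransferase subunit, and esc codes for a WD-repeat subunit that supports its activity in the early embryo. E(z) (FBgn0000629, chr3L:10634575-10638130, minus strand) had 1 summit, at chr3L:10637981-10638155, in its 5′ UTR and 53 bp downstream of a TSS. Its signal was 142.5 (rank 211) in replicate 2, 224.9 (rank 284) in replicate 3 and 371.5 (rank 244) pooled. It was the narrowest of the 17 peaks, 175 bp wide, and the other 3 pooled peaks near E(z) had signals of at most 42.07. Cnep1r2, on the plus strand, starts 16 bp upstream of the outermost E(z) start site, so the summit in E(z) lay near both starts.

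The esc gene (FBgn0000588, chr2L:11827204-11829405, minus strand) had no thresholded summit nearer than 10598 bp, where a peak of signal 223 at rank 674 was nearest to CycY, a cyclin gene. It lies within the span of Pde1c, a phosphodiesterase gene. The pooled list held 4 peaks near esc, none in its body. The strongest had a pooled signal of 47.63 at rank 10354 and a −log10 q of 0.962, and was nearer to a Pde1c start site than to that of esc. Each replicate also listed 4 peaks within 5 kb, the strongest with 20.31 in replicate 2 and 36.84 in replicate 3. The pair of PRC2 genes thus differed, with a summit at the start of E(z) and, in the pooled list, low peaks beyond the 3′ end of esc.

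The genes pho and phol code for related zinc-finger proteins that bind the same DNA word, the fly counterparts of mammalian YY1. The phol gene (FBgn0035997, chr3L:9452803-9456281, minus strand) had 3 summits and pho had none. The strongest at phol, at chr3L:9457652-9457932, lay 1512 bp upstream of phol and 119 bp from a TSS of CG3552, in its intron. Its signal was 165.1 (rank 151) in replicate 2, 386.9 (rank 90) in replicate 3 and 553 (rank 109) pooled. In the replicates' own lists the nearest start was that of CG3437, 77 bp from the summit in replicate 2 and 98 bp in replicate 3. The summit at chr3L:9460664-9461099 was 83 bp from a TSS of CG3434, with 56.22 (rank 1416) in replicate 2, 110.9 (rank 1132) in replicate 3 and 170 (rank 1134) pooled. It lay 4601 bp upstream of phol, between the start of CG3434 at 4518 bp and that of CG44838 at 4769 bp. The third was in the 5′ UTR of phol itself, 164 bp downstream of the TSS, at chr3L:9455899-9456334. Its signal was 27.83 (rank 6042) in replicate 2, 70.4 (rank 2516) in replicate 3 and 95.68 (rank 3122) pooled, the lowest of the 17. High signal near phol was thus near start sites of neighbouring genes. At one summit these were an inner start of CG3552 and the start of CG3437, and at the other the starts of CG3434 and CG44838. The outermost CG3552 start lay 37 bp from the phol start, on the other strand. The peak at the start of phol, near the threshold, therefore lay close to both starts.

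The pho gene (FBgn0002521, chr4:1172469-1181628, minus strand) had 0 peaks in its body or within 5 kb in the thresholded, pooled, replicate 2 and replicate 3 lists. The nearest thresholded and pooled summit was 59098 bp away, near Cals, with a signal of 123.4 at rank 1983. It is the only gene of the set on the small chromosome 4, where 18.8% of 80 genes had a thresholded summit within 5 kb and 35% had a pooled one. An empty window at pho was therefore the more common state for genes of that chromosome in these lists.

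Scm codes for a SAM-domain protein that links PRC1 with PRC2. Scm (FBgn0003334, chr3R:9633359-9637611, minus strand) had no thresholded summit within 20081 bp, where a peak of signal 132.5 at rank 1737 was nearest to CG8312. Its 7 pooled peaks included 1 in the body, in a coding exon, with a signal of 29.31 and a −log10 q of 0.29. The strongest pooled peak, 2433 bp beyond its 3′ end and nearest to Calr, the calreticulin gene, had a signal of 79.9 at rank 4316. There replicate 2 listed 26.31 (rank 6803) and replicate 3 listed 51.38 (rank 4354). At a separate site 3223 bp beyond the 3′ end, with a pooled signal of 56.42, replicate 2 listed 46.87 (rank 2073), its strongest near Scm, and replicate 3 listed 20.15 (rank 19073) in the same neighbourhood. Scm thus had a peak among the 3310 strongest of replicate 2, at a site where replicate 3 was low, and none among those of replicate 3.

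**Figure D4:**
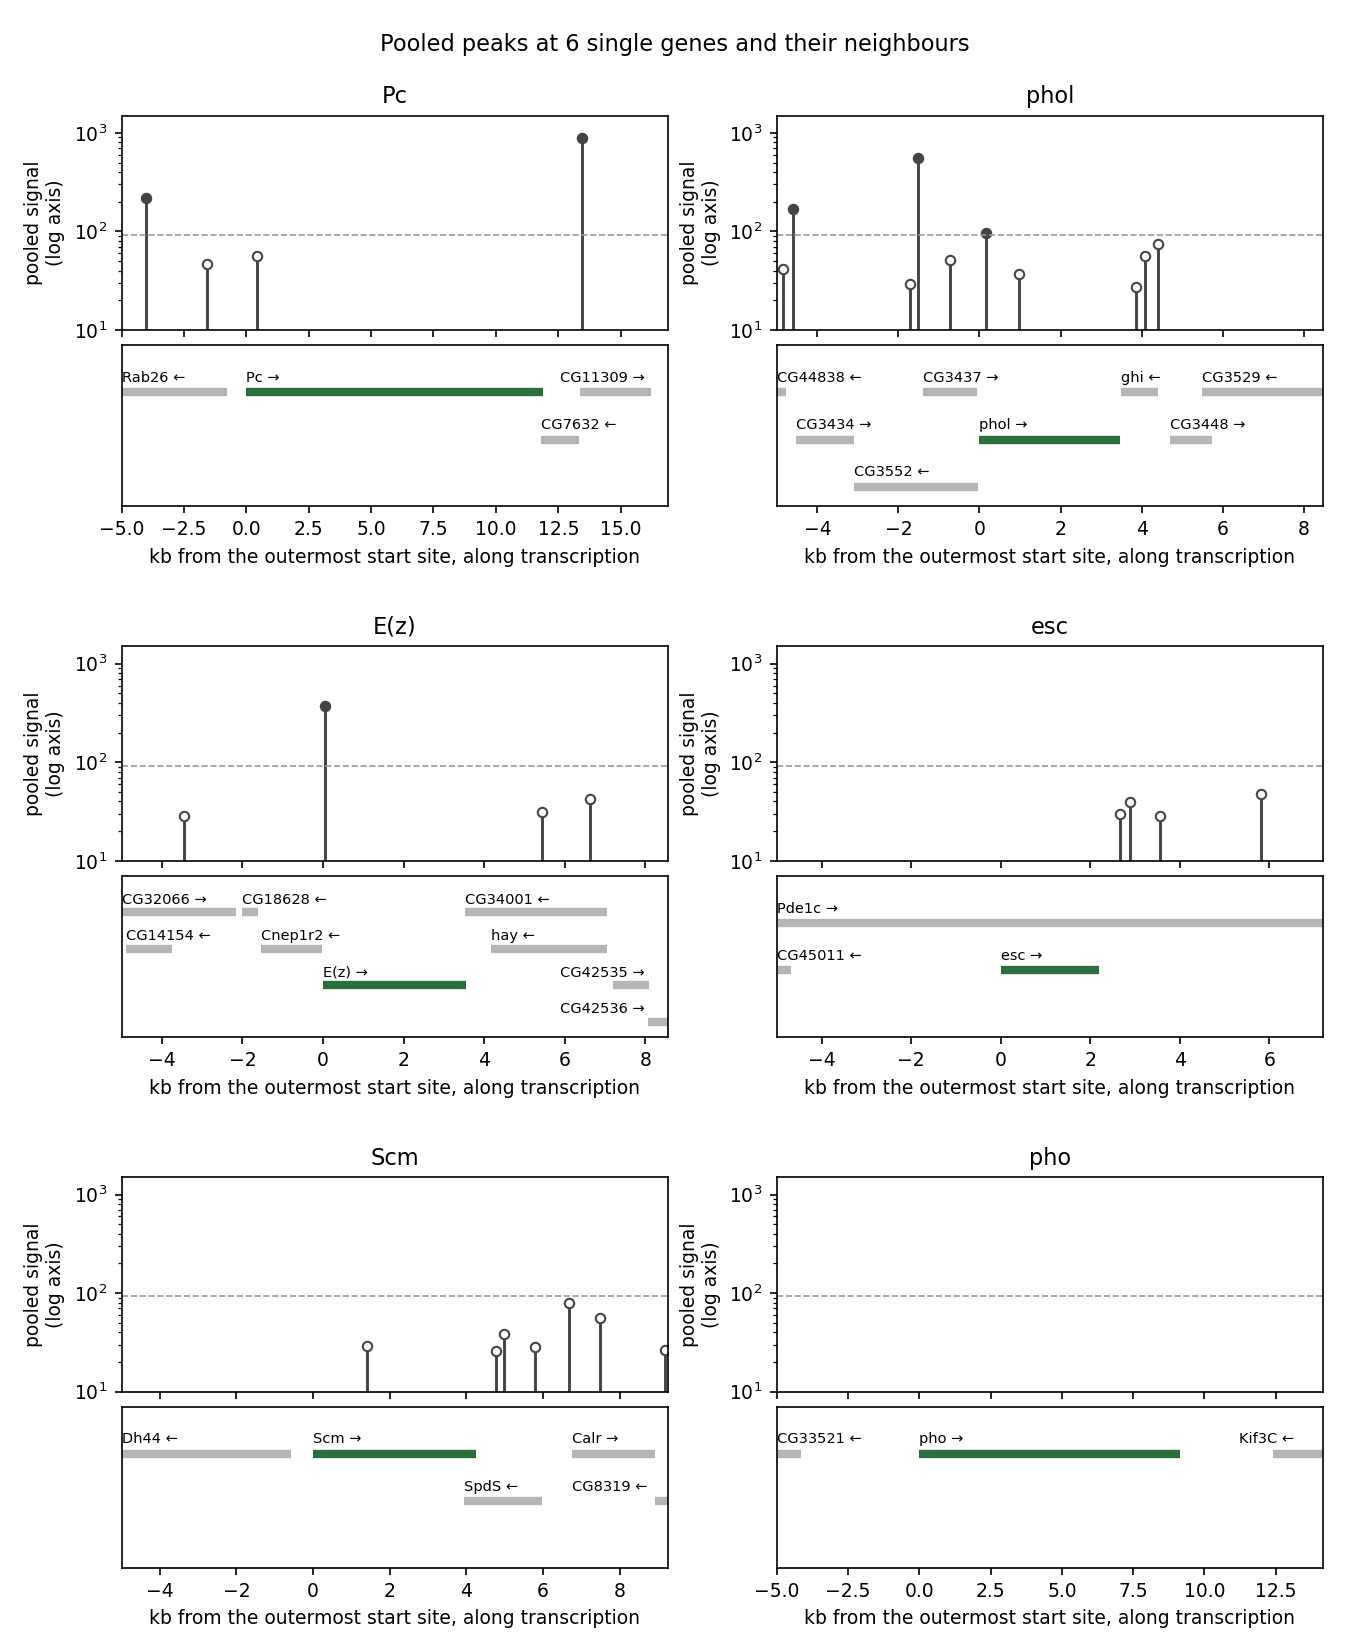
Pooled signal of each peak, on a log axis, against the position of its summit in kb from the outermost start site along transcription, for Pc, phol, E(z), esc, Scm and pho with neighbouring genes below. Filled points lie above the dashed line, the threshold at 92.55. The strong summits near Pc and phol stand at neighbouring genes, and the panel of pho is empty. The summit of E(z) stands at its own start, close to the start of Cnep1r2.

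Entries of the full pooled list, which is labelled as peaks and background, lay at nearly all of the genes. Some had little support, such as a signal of 24.84 at Su(z)2 with a −log10 q of 0.187. The counts below therefore mix peaks with possible background. In the full pooled list 9 of the 10 genes, all but pho, had a peak in the gene or within 5 kb, against 86.7% of all genes. Su(z)2 had 13 pooled peaks, ph-p 10, phol 10, Scm 7, Psc 6, Pc, E(z) and esc 4 each, and ph-d 3, against a median of 4 over all genes with quartiles of 2 and 6. Per kb of the window searched, phol had 0.742 peaks, Su(z)2 0.607, Scm 0.491 and ph-p 0.451, above the upper quartile of 0.427 for all genes. Psc had 0.24, Pc 0.183, ph-d 0.171 and pho 0, below the median of 0.26, and E(z) and esc lay between. Replicate 2 listed 14 peaks at Su(z)2, 11 at phol and 10 at ph-p, and replicate 3 listed 12, 13 and 12. The largest counts were thus at the same 3 genes in both replicates. Su(z)2 reached its count with peaks of low signal, since 3 of its 13 passed the threshold, while 7 of the 10 at ph-p did.

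**Figure D5:**
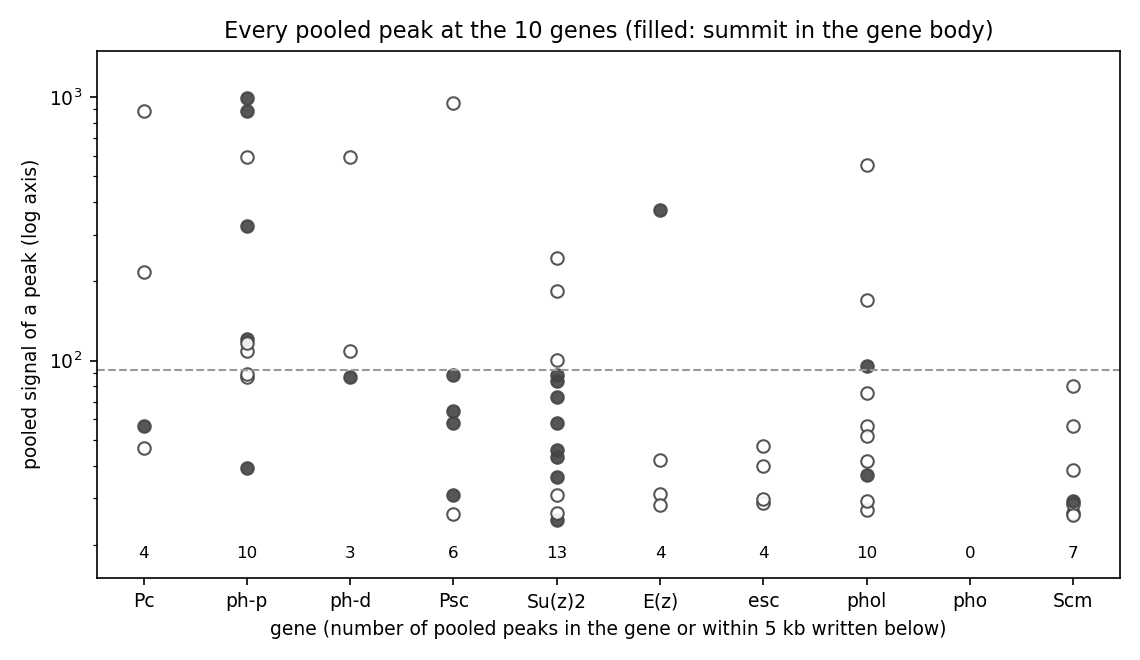
Pooled signal, on a log axis, of every pooled peak in or within 5 kb of the 10 genes, with filled points for summits in the gene body, the number of peaks below and the threshold of 92.55 as a dashed line. Among the points above the line, 6 lie in a gene body, 4 at ph-p and 1 each at E(z) and phol. The peaks shared by ph-p and ph-d are drawn at both genes.

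The 17 peaks had some features besides their rank. A summit within 500 bp of any protein-coding TSS was found for 10 of 17 (58.8%), against 49.6% of all 3310. The nearest TSS belonged to one of the genes for 11 of 17, while the nearest start was that of CG11309, CG3552, Rab26, CG33798, CG3434 or D2hgdh for the other 6. Peaks narrower than 436 bp, the most frequent width in the list, were 8 of 17 (47.1%), against 15.8% of all. The 8 strongest of the 17 were these 8 narrower peaks, so width went with rank, and peaks of like rank were not compared. The strongest of them was 435 bp wide. The highest −log10 q of the list, 3.74, was shared by 15 of 17, against 83.4% of all peaks.

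Most of the summits recurred in the replicates' own lists. A summit within 100 bp was found in both replicates for 14 of 17 (82.4%), against 91.1% of all thresholded summits. Replicate 2 had one for 15 of 17, against 93.9%, and replicate 3 for 16 of 17, against 97%. The 3 that lacked a match were the peak in D2hgdh, the peak at the ph-d start and the far peak beyond Su(z)2, all with pooled signals of 117.1 or less. The authors' threshold itself used both lists, so recurrence is not independent of being on it.

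Of 24 further genes of the Polycomb system, from complex subunits to DNA-binding partners, 13 (54.2%) had a thresholded summit within 5 kb, beside the 37.3% of all genes. Their list was also drawn up with earlier results known. Its genes range in length from 1599 bp at Sce to 119787 bp at jing, and no share among genes of like length was computed. Caf1-55, a histone-binding subunit of PRC2 and of other complexes, had the strongest, with a signal of 262.2 in replicate 2, 519.2 in replicate 3 and 787.2 (rank 40) pooled, 125 bp from a TSS of Art3. Kdm2, a subunit of a PRC1-related complex, had 8 summits, the strongest in its intron with 177.7 in replicate 2, 370.3 in replicate 3 and 558.5 (rank 105) pooled. Dsp1, the HMG-box protein whose word was sought above, had 5, the strongest with 170.6, 329.2 and 495.9 (rank 140) in the same lists. It lay 679 bp upstream of Dsp1 and 667 bp from a TSS of CG9921. The next was grh, with 43.52 in replicate 2, 156.2 in replicate 3 and 205.4 pooled. This summit lay 4021 bp beyond the 3′ end of grh and 142 bp from a TSS of olf186-M. Spps had 82.9, 84.71 and 173.4 in the same lists, at the start of mask, and jing had 82.37, 87 and 172.6. The jing summit lay in an intron of jing, and the nearest TSS was that of CG15233, 11422 bp away. Sce, the ubiquitin ligase of PRC1, and Su(z)12, escl, Pcl and Jarid2 of PRC2 had no thresholded summit. Of PRC1 and PRC2 together, the peaks covered some subunits and left out others.

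Known targets of Polycomb silencing were described for the same reason. Of 24 classic targets, 7 (29.2%) had a thresholded summit within 5 kb, against 37.3% of all genes. These targets range in length from 1477 bp at eve to 132008 bp at hth, and a longer gene has a longer window. No share among genes of like length was computed for them. The strongest had pooled signals of 243.2 at Dll, 198.8 at Abd-B, 176.3 at hth, 141.5 at Antp, 107.1 at cad and 103.1 at Scr. That of cad lay 4189 bp beyond its 3′ end and 332 bp from a TSS of Pomp. That of Scr lay 4376 bp beyond its 3′ end, with Dfd the nearest gene by TSS. Replicate 2 listed each of these 6 summits within 100 bp, and replicate 3 listed all but that of Antp. The strongest of them, 126 bp upstream of Dll, ranked 588 of 3310 with 93.78 in replicate 2 and 136.1 in replicate 3. A summit among the 100 strongest lay at 0 of these 24, against 2.09% of all genes. With a share this low, 0 of 24 is an ordinary count, and nothing is read from it. Neither en, inv, Ubx nor abd-A had a thresholded summit in the gene or within 5 kb. The response elements of these genes were not examined as such, and those further away lie outside this window.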

How the data were processed

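Peak lists of Hand-GFP chromatin immunoprecipitation from whole embryos were analysed for 2 biological replicates, pooled and singly, on the dm6 build; the dm3 lists were not used. Per the deposited file listing, the authors called peaks against a control alignment. They deposited 1 signal value per peak, which was used as given to rank peaks within a list, and a q-value as −log10. Aligner, caller and reproducibility threshold were not given in the sources used here. Depth per sample is unknown, so no counting interval is given.

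Summits were assigned to protein-coding genes of Ensembl release 115 whose body or 5-kb flanks held them, and matched between lists within 100 bp. Sequences were read in 101-bp windows from the reference genome of the build, and sequence of chromosome arm 2R was not analysed here. Symbols were matched as given, 1 through an alias. Copies were sought with blastn 2.17.0 (E-value at most 1e-05). Programs in Python 3.11.15 with numpy 2.4.6 and matplotlib 3.10.9 were tested on simulated data.

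The genes, the lists of further Polycomb genes and of targets, and the words were chosen with earlier results of these data known. Named were all 10 genes, each summit with its nearest gene, and at most 6 genes of each other list, by signal; other genes and peaks named were chosen after their values were seen. With 1 group no test was made. Alternatives were other gene windows, summit distances, sequence windows, the stronger 1655 peaks and each replicate alone.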

Additional observations from a re-analysis of the deposited data

How the results depend on the processing

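Results were recomputed with the summit limited to the gene or to 2 kb, to the nearest start site or the stronger 1655 peaks, and with each replicate alone. In the gene body alone, 3 Polycomb group genes held 6 summits, against 7 and 17 within 5 kb, and 8 of the 24 further genes had a summit (10.2% of all genes), against 13. Among the stronger 1655 peaks, 8 of the further genes had a summit (23.5% of all genes). Each replicate alone was read from its own list, with as many of its strongest peaks as the thresholded list holds. Replicate 3 gave 7 Polycomb group genes with 17 summits and 11 of the 24 further genes (45.8%), against 37.8% of all genes. Replicate 2 gave 8 Polycomb group genes with 16 summits and 15 of the 24 further genes (62.5%), against 35.3% of all genes. Summits within 50 bp in both replicates numbered 9, and within 250 bp 17, against 14 within 100 bp. The Pho core was in 0 windows within 50 bp of the summit and in 2 of 13 within 100 bp (24.9% of all windows). GAGAG was in 1 window within 50 bp, 0 within 25 bp and 5 within 100 bp, and CANNTG in 1, 0 and 8. Longer windows hold more words by construction.

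With either replicate left out, the signal matched to each gene's strongest pooled summit was 337.2 to 548.8 for Pc, 384.3 to 650.8 for ph-p, 251.6 to 358.6 for ph-d, 322.4 to 634.3 for Psc, 79.27 to 166.7 for Su(z)2, 142.5 to 224.9 for E(z) and 165.1 to 386.9 for phol. All were below the pooled values, the cause was not tested, and the lists have no common scale. Another peak was the strongest for ph-p in replicate 3 (665.1) and for Su(z)2 in replicate 2 (105.9). No paired analysis was possible because there was 1 group and no test. Depth is unknown, so a gene without a peak may have one that these lists could not show.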
